A study of Rattus norvegicus with 6 samples.

Results

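The genes described are 7 rows of the count files that code for collagen chains and for proteins that build collagen and fibronectin into a matrix. They were taken by Ensembl identifier from a list that was chosen with earlier results of these data known. The rows are listed as Col1a1, Col1a2, Col3a1, Fn1, Sparc, Postn and Lox, and are 7 of the 32883 identifiers in the files. rBMSCs are primary mesenchymal stem cells from the bone marrow of Lewis rats, held at a low passage in medium with fetal bovine serum. They were seeded on 3D Nichoids, stacked grids of polymerized resin that cells enter, or on 2D Nichoids, a single layer of the same grid that served as the flat control. RNA was taken at day 4 and sequenced as 3 libraries for each group, lettered A to C. The labels name no treatment or genetic change in either group and do not say whether the replicates came from separate cultures or animals, so the p values measure the spread between these libraries, which may be technical. Library totals lay between 38747857 and 41860684 counts in 3D Nichoids, and between 38353363 and 39112286 in 2D Nichoids.

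Type I collagen is a fibril-forming trimer assembled from chains coded by Col1a1 and Col1a2, and type III collagen, coded by Col3a1, is found in the same fibrils of many soft tissues. Fibronectin (Fn1) is laid down by cells as fibres through integrins, and these fibres serve as a template on which collagen is deposited. Sparc and periostin (Postn) are matricellular proteins that bind collagen, and lysyl oxidase (Lox) crosslinks collagen and elastin outside the cell. Stromal cells of the bone marrow are known to secrete large amounts of these proteins.

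In 3D Nichoids the counts of Col1a1, Fn1, Sparc and Lox were higher than in 2D Nichoids, with folds of 1.72, 1.45, 1.48 and 1.31. Col3a1 was lower, with a fold of 0.948, and Postn, with a fold of 0.974, did not pass the adjusted p value. The identifier listed as Col1a2 was also called higher, but on no more than 219 counts per library. In such bulk RNA, fewer cells of a type and less RNA per cell cannot be told apart. All 7 rows passed the filter on low counts. Of these, 5 were higher and 1 was lower at the adjusted p value cutoff of 0.05 (edgeR quasi-likelihood test, adjusted over all 13523 genes tested), against 18.9% of tested genes called higher and 18.8% called lower. The groups did not overlap in any of the 7 rows, against 46.9% of tested genes. Most of these rows are counted far more deeply than other genes, and small differences are called more often at such depth. Among the 584 genes with a mean normalised count of at least 10000, which include all of the 7 except the row listed as Col1a2, 59.9% were called higher, 23.8% were called lower, and the groups did not overlap in 86.5%. The 4 higher and 1 lower of these 6 members are close to those shares. None of the 7 reached the second cutoff of the study, an absolute log2(FC) above 1, which 3.42% of tested genes passed together with the adjusted p value.

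The row listed as Col1a2, ENSRNOG00000011292, held 219, 159 and 207 counts in the 3D libraries A to C and 127, 156 and 120 counts in the 2D libraries. Col1a1 had from 4014 to 6367 times as many counts in the same libraries. Its rank among all identifiers lay between 9728 and 10581, whereas Col1a1 was the second most counted in every library. Such counts are low next to those of Col1a1, although the usual type I trimer needs both chains. No table used here pairs the identifier with a symbol, the genome builds named by the labels and by the methods differ, and the handling of reads that align to several genes is not stated. The part of these in the low counts was not tested. In RefSeq (build GRCr8, not that of the files) no other gene overlaps Col1a2, Col3a1, Fn1, Sparc or Postn, while Col1a1 overlaps 1 gene, Sgca, and Lox overlaps 1 ribosomal protein pseudogene. Whether reads in those stretches were separated by the counting is not known, since the strand and the handling of overlapping genes are not stated. The row is therefore called by its identifier or as listed, and its values are not taken as the level of the Col1a2 transcript.

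Together the 7 rows took between 11.01% and 11.08% of all counts in 3D Nichoids, and between 8.39% and 8.43% in 2D Nichoids. The difference of 2.64 percentage points was far larger than the spread within either group (SD 0.0398 and 0.0226, n = 3; exact two-sided permutation test, p = 0.1, which 3 libraries against 3 cannot go below). Fn1 alone rose from 4.23% to 5.70% of counts, and Col1a1 from 1.63% to 2.61%. These genes made up 55.8% and 37.0% of the net gain, Sparc 12.9% and Lox 0.832%, whereas the share of Col3a1 fell by 0.158 percentage points and that of Postn fell by 0.0179. A share of counts is not corrected for transcript length, so it does not rank the genes by number of transcripts. Because these genes are so abundant, the scaling between libraries was repeated without them. With TMM factors and library sizes computed without the 7 rows, the log2(FC) of Col1a1 was 0.78, as with them. TMM by default leaves the most counted genes out of its factors. All members but the row listed as Col1a2 ranked 89 or higher by count among tested genes. This setting could therefore change little and does not show whether their abundance affects the scaling. With total counts alone it was 0.68.

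**Figure D1:**
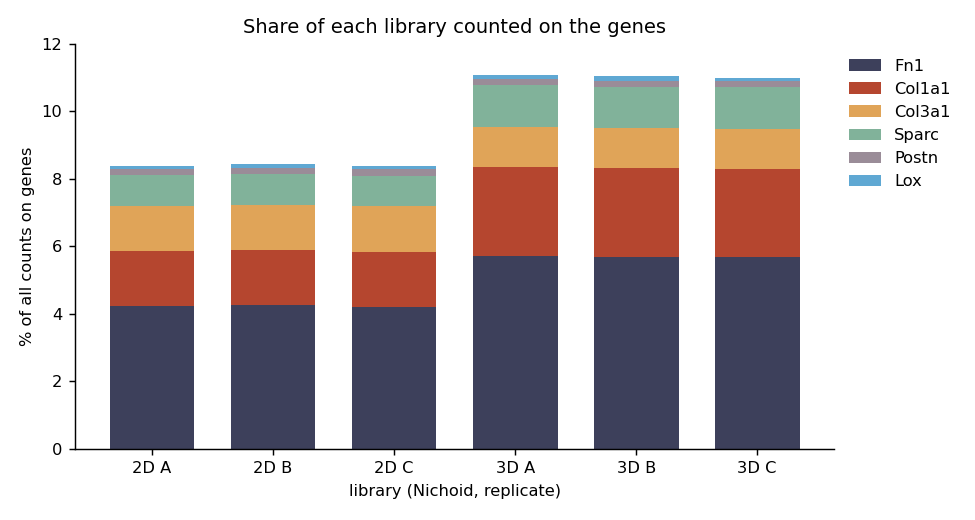
Share of all counts on genes (%, vertical axis) taken by Fn1, Col1a1, Col3a1, Sparc, Postn and Lox, stacked, in each of the 3 2D Nichoid and 3 3D Nichoid libraries. The stacks reach 8.39% to 8.43% in 2D Nichoids and 11.01% to 11.08% in 3D Nichoids, and the row listed as Col1a2 is too small to draw.

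Among the collagen chains, Col1a1 (ENSRNOG00000003897) had 1098711, 1012384 and 1043394 counts in the 3D libraries A to C and 626581, 626253 and 640981 counts in the 2D libraries. After TMM scaling, which corrects for the composition of each library, its level was 27068 ± 184 CPM (counts per 1000000 scaled counts of the library) in 3D Nichoids and 15782 ± 8.76 in 2D Nichoids (SD, n = 3). All 3D libraries lay far above all 2D libraries. The log2(FC) was 0.78 (SE 0.0089, adjusted p value 8.71e-43, edgeR), a larger absolute change than in 90.7% of tested genes and in 95.9% of the 584 genes counted at least 10000 times on average.

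Col3a1 (ENSRNOG00000003357) had 497847, 465301 and 476604 counts in 3D Nichoids and 511393, 518673 and 534048 counts in 2D Nichoids. Its scaled level was 12356 ± 61.4 CPM in 3D Nichoids and 13034 ± 132 in 2D Nichoids (SD, n = 3), without overlap. The log2(FC) was -0.08 (SE 0.010, adjusted p value 3.96e-08, edgeR), so the fall was small next to the rise of Col1a1 but larger than the spread between replicates. The absolute log2(FC) was smaller than the median of all tested genes, 0.21. Scaling by total counts alone, which puts the median log2(FC) over the whole table at -0.11, gave -0.18 for Col3a1. This shift between scalings was larger than the fall with TMM, and the SE does not include it.

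The row listed as Col1a2 had 5.01 ± 0.663 CPM in 3D Nichoids and 3.36 ± 0.507 in 2D Nichoids (SD, n = 3). The lowest 3D value, 4.24 in replicate B, stood just above the highest 2D value, 3.93 in replicate B. The log2(FC) was 0.58 (SE 0.21, 95% interval 0.16 to 0.99, adjusted p value 0.024, edgeR). The call was lost, with adjusted p values from 0.0594 to 0.104 by edgeR, when 3D replicate A, 3D replicate C, 2D replicate A or 2D replicate C was left out, the log2(FC) then being 0.51, 0.53, 0.54 and 0.49 in that order.

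Fibronectin transcripts were the most counted in every library. Fn1 (ENSRNOG00000014288) had 2397402, 2207200 and 2284614 counts in the 3D libraries A to C and 1625592, 1629804 and 1645141 counts in the 2D libraries. The scaled level was 59115 ± 342 CPM in 3D Nichoids and 40841 ± 298 in 2D Nichoids (SD, n = 3). Relative to the mean, the SD was 0.578% for the 3D libraries and 0.729% for the 2D libraries, and the groups lay far apart. The log2(FC) was 0.53 (SE 0.0076, adjusted p value 3.42e-39, edgeR).

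**Figure D2:**
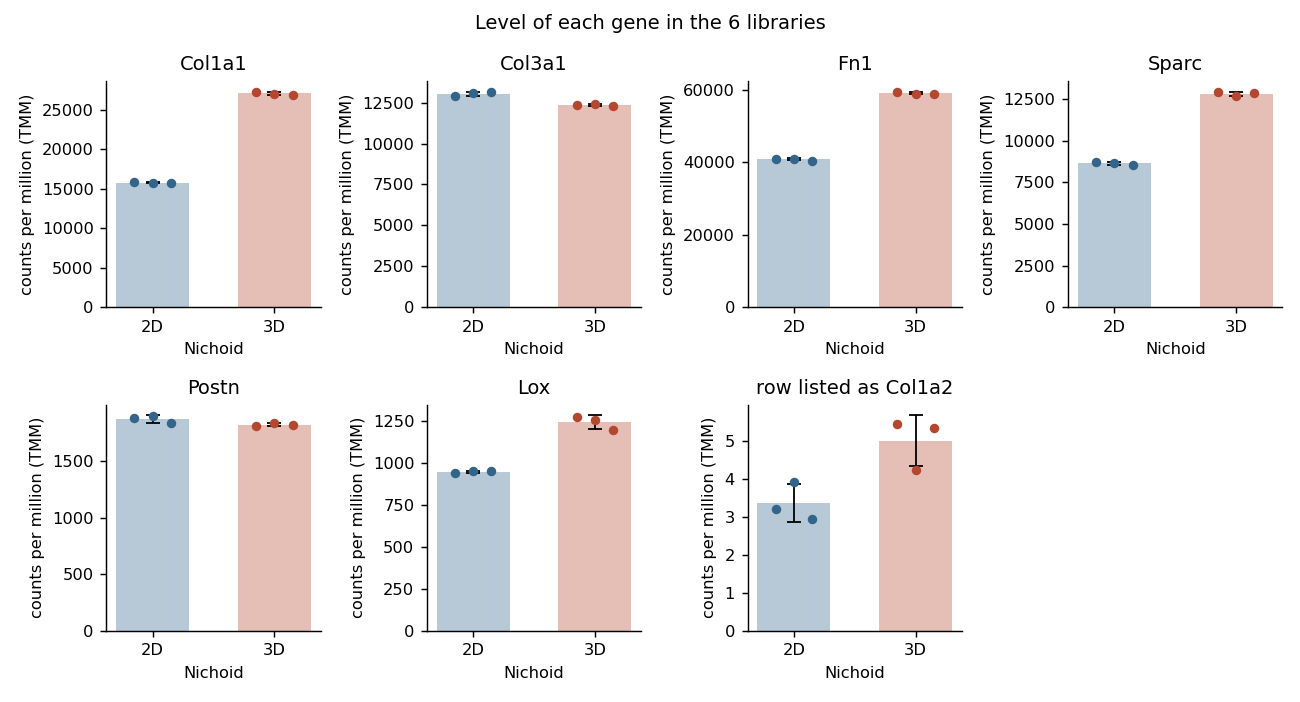
Scaled level (CPM after TMM, vertical axis from 0, a separate scale for each gene) in 2D and 3D Nichoids. Points are the 3 libraries of a group, bars the mean and whiskers the SD. Col1a1, Fn1, Sparc and Lox stand higher in all 3D libraries, Col3a1 and Postn slightly lower, and the row listed as Col1a2 lies under 6 CPM throughout.

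Of the matricellular genes, Sparc (ENSRNOG00000012840) had 521436, 476162 and 498812 counts in 3D Nichoids and 346583, 345384 and 347300 counts in 2D Nichoids. Its scaled level was 12839 ± 121 CPM in 3D Nichoids and 8662 ± 98.2 in 2D Nichoids (SD, n = 3). The 3D libraries were all higher, and the log2(FC) was 0.57 (SE 0.011, adjusted p value 4.79e-35, edgeR). In 3D Nichoids Sparc was the fourth most counted gene of each library, above Col3a1, whereas in 2D Nichoids Col3a1 had more counts than Sparc.

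Postn (ENSRNOG00000012660) had 73029, 68697 and 70530 counts in 3D Nichoids and 74614, 75254 and 74503 counts in 2D Nichoids. The scaled level was 1822 ± 10.5 CPM in 3D Nichoids and 1870 ± 32.0 in 2D Nichoids (SD, n = 3). The groups were all but touching, with a highest 3D value of 1833 in replicate B and a lowest 2D value of 1834 in replicate C. The log2(FC) was -0.04 (SE 0.016, adjusted p value 0.0561, edgeR). The 95% interval of the log2(FC), from -0.07 to -0.0058, lay wholly below that of Sparc, from 0.55 to 0.59. Postn passed the adjusted p value with DESeq2 (0.0441), with limma-voom (0.0113), without 2D replicate C (0.00952, edgeR) and with total counts alone (9.89e-10, edgeR), where the log2(FC) was -0.14.

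The promoters of these matricellular genes are shown as examples of a gene that was called higher in 3D Nichoids and one that was not. Of the 7 genes, 3 had an entry in the RefSeq promoter table (build GRCr8), namely Sparc, Postn and Col1a2, and Col1a1, Col3a1, Fn1 and Lox had none. Each sequence is the 250 bases before the annotated start, 5′ to 3′ on the gene's strand, for Sparc chr10:40038817-40039066 on the minus strand and for Postn chr2:140677811-140678060 on the plus strand. Capitals mark matches to the motifs searched.
Sparc: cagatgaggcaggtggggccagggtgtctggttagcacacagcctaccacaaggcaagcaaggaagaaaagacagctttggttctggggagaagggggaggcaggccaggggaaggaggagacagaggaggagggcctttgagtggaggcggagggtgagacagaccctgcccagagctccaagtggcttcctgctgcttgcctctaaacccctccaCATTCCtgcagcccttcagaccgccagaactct
Postn: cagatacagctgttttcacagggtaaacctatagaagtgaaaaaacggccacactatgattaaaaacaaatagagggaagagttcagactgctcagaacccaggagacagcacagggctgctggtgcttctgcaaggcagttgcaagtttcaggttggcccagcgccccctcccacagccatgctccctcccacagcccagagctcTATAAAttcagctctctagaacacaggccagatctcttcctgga
Both strands were searched for TATAAA, the usual TATA box, for CCAAT, for the GC box GGGCGG, for the core GGAATG, which is bound by the TEAD factors that partner YAP, and for the AP-1 motif TGANTCA. The Sparc promoter held GGAATG once, on the opposite strand, beginning 33 bases before the start, a match found in 12.1% of the 33469 promoters of this length. The Postn promoter held TATAAA once, 44 bases before the start, a match found in 12.9% of promoters. Neither window held the CCAAT box, the GC box or the AP-1 motif, which were found in 34.0%, 30.5% and 6.34% of promoters. The Col1a2 promoter, not printed because its row could not be taken as that gene's level, held TATAAA 170 bases and CCAAT, on the opposite strand, 221 bases before the start, and no GGAATG. The letters TATAAA were thus found in the Postn and Col1a2 windows, and the call of the row listed as Col1a2 is not set beside them. These are matches of letters in 3 promoters, which separate no groups of genes, and binding was not measured here.

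The crosslinking enzyme gene Lox (ENSRNOG00000014426) had 51520, 47128 and 46603 counts in the 3D libraries A to C and 37283, 37825 and 38755 counts in the 2D libraries. The scaled level was 1246 ± 39.6 CPM in 3D Nichoids and 949 ± 7.99 in 2D Nichoids (SD, n = 3). Among the 3D libraries replicate C was the lowest at 1202, still above the highest 2D value of 954. The log2(FC) was 0.39 (SE 0.019, adjusted p value 1.85e-20, edgeR), the smallest rise among the genes called higher.

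**Figure D3:**
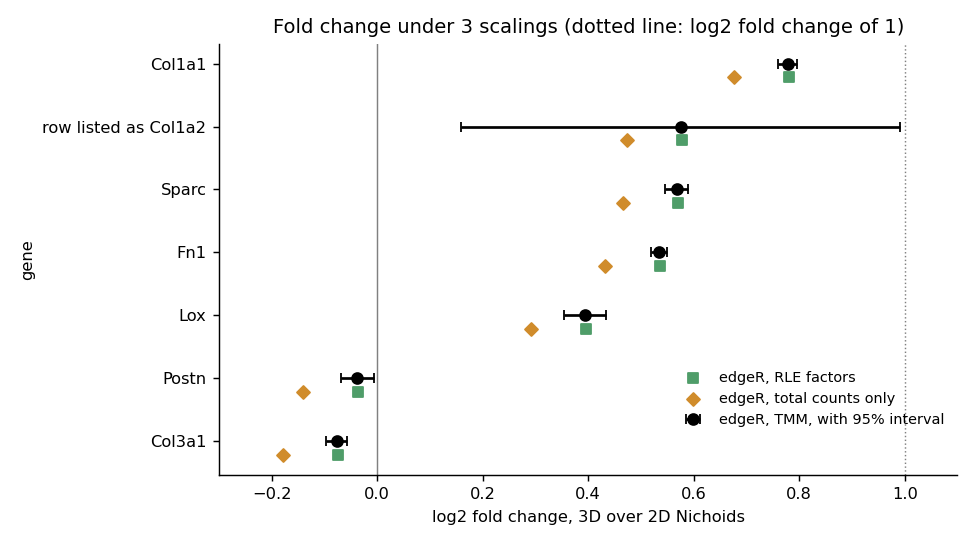
Log2(FC) of each gene, 3D over 2D Nichoids (horizontal axis), with its 95% interval from edgeR after TMM scaling (black), and the same value with RLE factors (green squares) and with total counts alone (orange diamonds). The total-count values lie about 0.10 lower for every gene, no point changes side of 0, and all stay below the dotted line at 1, the cutoff of the study.

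Ratios of counts between these genes within one library do not depend on the scaling between libraries, so they show whether the genes changed by unequal amounts. For 1 count of Col1a1 there were 0.826 ± 0.00875 counts of Col3a1 in 2D Nichoids and 0.457 ± 0.00325 in 3D Nichoids (SD, n = 3), a fall of the ratio by 0.86 on the log2 scale. The ratio of Postn to Col1a1 fell by 0.82 on the log2 scale, from 0.118 ± 0.00203 to 0.0673 ± 0.000738 (SD, n = 3). The collagen I chain thus gained on both genes that were not higher in 3D Nichoids.

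The genes that were higher also changed by less than Col1a1. The ratio to Col1a1 fell by 0.24 for Fn1, by 0.21 for Sparc and by 0.39 for Lox on the log2 scale. In none of these 5 ratios did the groups overlap. Each gave p = 0.1 (exact two-sided permutation test), the lowest possible with 3 against 3. Benjamini-Hochberg adjustment over 6 ratios gave 0.12. The denominator, Col1a1, rose in 3D Nichoids by more than the absolute log2(FC) of 95.9% of the 584 genes counted at least 10000 times on average. A lower ratio to Col1a1 thus follows for most such genes, and the falls do not set these members apart. The share of other genes whose ratio to Col1a1 also separated the groups was not counted. The ratio of Col1a1 to the row listed as Col1a2 was 5475 ± 773 in 3D Nichoids and 4763 ± 680 in 2D Nichoids (SD, n = 3) and overlapped between the groups (exact two-sided permutation test, p = 0.4, adjusted 0.4).

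**Figure D4:**
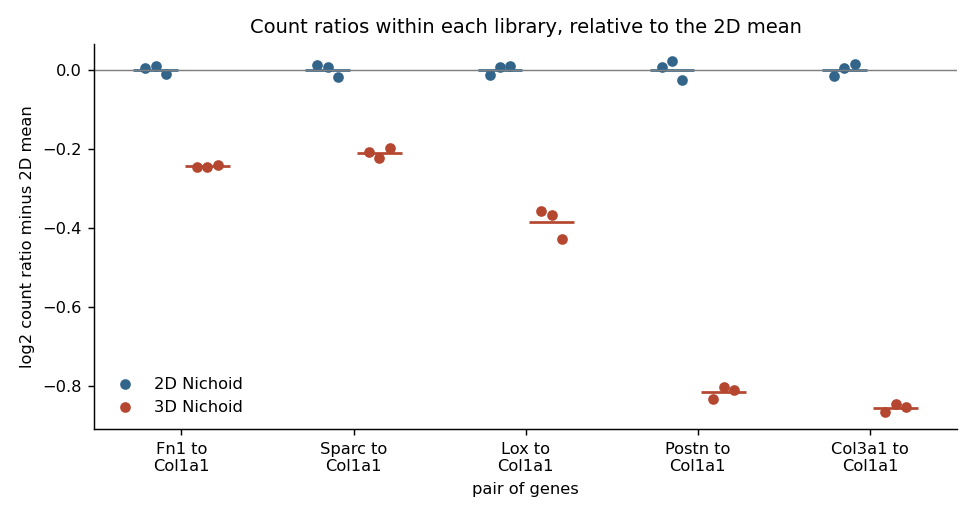
Log2 count ratio of 5 genes to Col1a1 in each library, minus the mean of the 2D Nichoid libraries (vertical axis). Points are libraries and short lines are group means, 2D in blue and 3D in red. In 3D Nichoids the ratios to Col1a1 lie lower by 0.24 for Fn1, 0.21 for Sparc, 0.39 for Lox, 0.82 for Postn and 0.86 for Col3a1.

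Likeness between genes was measured as the root mean square difference of log2 normalised counts over the 6 libraries, each gene centred on its own mean. Fn1 and Sparc were the closest pair of the 7, with a difference of 0.0184, and of 11604 other genes with a mean of at least 50, 3 lay nearer to Fn1 and 3 nearer to Sparc. Col3a1 and Postn were each other's nearest member, with a difference of 0.0286, but 110 other genes lay nearer to Col3a1 and 111 nearer to Postn. The nearest member to Col1a1 was Sparc, at 0.106, and 137 other genes lay nearer. The nearest member to Lox was Fn1, at 0.0750, and 417 other genes lay nearer. For the row listed as Col1a2 it was Sparc, at 0.159, with 148 other genes nearer. Outside the 7, the gene most like Sparc was ENSRNOG00000006997 (0.0120) and the gene most like Fn1 was ENSRNOG00000001249 (0.0126). The gene most like Col3a1 was ENSRNOG00000016963 (0.00975) and the gene most like Postn was ENSRNOG00000020513 (0.0127). As the 6 libraries fall into the 3D and 2D groups, genes with a like log2(FC) come out near each other.

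Other collagen, processing, crosslinking and receptor genes, and markers of mesenchymal and other cell types, were not analysed here, since 0 identifiers could be paired with symbols.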

How the data were processed

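RNA of rBMSCs from 3D and 2D Nichoids at day 4 was measured in 3 libraries per group. The deposited values are read counts per Ensembl gene, not normalized, which the authors made from single-end reads with STAR 2.7.0a and HTSeq. The submitters' notes name Rnor_6.0 and HTSeq 0.12.4, while the methods name another build and HTSeq version. Strand, overlapping genes and multiply aligned reads are not stated, and no coordinates of the files were used.

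Counts were analysed on the whole table with edgeR 4.0.16 in R 4.3.3 (filterByExpr, TMM, robust quasi-likelihood test without covariates, Benjamini-Hochberg adjustment), after a test on simulated data. SE is the size of the log2(FC) divided by the square root of F. Shares and ratios were tested by exact permutation (scipy 1.17.1). DESeq2 1.42.0 (without independent filtering, on the same genes), limma 3.58.1 (voom), RLE, total counts, scaling without the 7 genes, 2 other filters, the replicate block and each library left out were alternatives. All 7 members were named, beside the genes nearest to them in pattern. The members and lists were chosen with earlier results of these data known, and the limit of 10000 counts after seeing the data. Intervals are 95% confidence intervals of the log2(FC), computed from the SE. They reflect only the variation between libraries and are not the range of library values.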

Additional observations from a re-analysis of the deposited data

How the results depend on the processing

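The log2(FC) of Col1a1, Col3a1, Fn1, Sparc and Lox kept its direction and stayed past the adjusted p value in all 8 other settings and in all 6 fits without 1 library. Postn passed with DESeq2 (log2(FC) -0.036), limma-voom (-0.038) and total counts alone (-0.14), which gave 2 members lower in place of 1. The row listed as Col1a2 did not pass with total counts alone (0.47). Without 1 library at a time the log2(FC) ranged from 0.49 to 0.70 for that row, with 2 of 6 fits past the adjusted p value, and from -0.051 to -0.027 for Postn, with 1 of 6, without 2D Nichoid replicate C. The members lower then numbered 1 to 2. Across those fits 4 to 5 members were higher. With a denominator without the 10 most counted other genes, the gain in the share of counts was 2.80 percentage points in place of 2.64. With total counts alone 1638 of all tested genes were called higher and 4161 lower, against 2560 and 2549. In the fit with a replicate block the log2(FC) was 0.78 for Col1a1 and -0.08 for Col3a1, and 5 members were higher and 1 lower. Deviations from the group means had correlations of 0.03, -0.01 and 0.02 between libraries of the same letter, for A, B and C. Between unlike letters they lay from -0.06 to 0.03. With 3 libraries per group and every tested gene weighted alike, these values cannot decide whether the letters pair the libraries. The cause of these changes was not tested.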
